A study of Mus musculus with 10 samples.

Results

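CNS-associated macrophages, which reside in the meninges and around vessels at the margins of the brain, were compared between mice with 2 copies and mice with 1 copy of the Mrc1-CreERT2 allele. The comparison used the 7 libraries of the series whose mice carry the allele, of 10 libraries in all. It set 4 homozygous mice (Mrc1-CreERT2/Mrc1-CreERT2) against 3 heterozygous mice, each library coming from an individual mouse. The samples were assigned to these groups by the genotype in their titles, and the remaining 3 libraries, from wild-type mice, served to estimate the spread and to show the step from no copy to 1. All mice were C57BL/6N animals aged 6 to 8 weeks that received no treatment, so CreERT2 was present on both sides of the comparison and was not induced. The sources used here give neither the sort gate that defined the cells nor the litters of the mice. The question was which transcripts differ when the last unmodified Mrc1 allele is replaced as well.

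Mrc1 encodes CD206, the mannose receptor, a C-type lectin that takes up mannosylated glycoproteins and collagen fragments, and it is a standard marker of macrophages in the meninges, the perivascular spaces and the choroid plexus. CreERT2 is Cre recombinase fused to a mutated ligand-binding part of the oestrogen receptor, which holds the fusion in the cytoplasm, bound by heat-shock chaperones, until tamoxifen is given. Heterozygous mice keep an unmodified Mrc1 allele and homozygous mice do not.

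Libraries held 27358042 to 36575446 counts in homozygous and 22986972 to 32326603 counts in heterozygous mice. Levels are given as CPM, a gene's counts per 1000000 counts of its library, scaled between libraries. Each title carries a letter, m or f, and 10 of 10 letters fitted the libraries' levels of Xist and Y-linked genes. The letters were m, m, f and f in homozygous replicates 1 to 4 and m, m and f in heterozygous replicates 1, 2 and 4. A number in the titles, which the labels do not explain, exceeded that of every heterozygous mouse in 3 of 4 homozygous mice, so whatever it stands for cannot be told apart from the genotype. Markers of the labelled cells were present. All 33 listed markers of border macrophages were expressed, with Apoe at 31516 to 47475 CPM and Dab2 at 2478 to 4119 CPM over the 7 libraries.

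Mrc1 fell to 22.7% of its heterozygous mean in the macrophages with 2 copies of the allele. The homozygous libraries held 441, 455, 542 and 519 CPM, the heterozygous ones 1985, 2188 and 2286 CPM, and the wild-type ones 3748, 3065 and 3631 CPM. The 3 genotypes did not overlap, and each was tight within itself, with SDs of 48.6 CPM in homozygous and 153 CPM in heterozygous mice. The log2 fold change between homozygous and heterozygous libraries was -2.14 (SE 0.10, 95% interval -2.37 to -1.91), and the adjusted p was 1.76e-05 (edgeR's quasi-likelihood test, Benjamini-Hochberg adjustment over 14023 genes). On the linear scale the step from 1 to 2 copies took away 1664 CPM (SE 91.9), 47.8% of the wild-type mean. The step from no copy to 1 took away 1328 CPM (SE 229), 38.2% of the wild-type mean. Both steps share the heterozygous libraries, and their difference was not tested on the linear scale. A gene-level count does not show which part of Mrc1 the remaining reads of homozygous mice cover.

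Ccr2 was the other gene that fell. It encodes the receptor for CCL2 by which monocytes leave the bone marrow and enter tissue, and it persists in macrophages recently derived from them. The homozygous libraries held 6.14, 5.72, 7.32 and 9.29 CPM, against 57.9, 56.0 and 35.1 CPM in the heterozygous and 68.0, 161 and 160 CPM in the wild-type ones. Every homozygous library was below every heterozygous library, and every heterozygous library below every wild-type one. The log2 fold change was -2.80 (SE 0.34, 95% interval -3.56 to -2.05), and the homozygous mean was 14.3% of the heterozygous mean (adjusted p = 0.0421, edgeR). In bulk samples, fewer cells that express a gene and less RNA of it per cell cannot be told apart.

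Lyve1 was the gene that rose. It encodes a hyaluronan receptor of lymphatic endothelium and of the perivascular and meningeal macrophages with low MHC class II. Homozygous libraries held 1106, 1048, 1150 and 1260 CPM, heterozygous ones 743, 609 and 625 CPM, and wild-type ones 628, 628 and 638 CPM. Heterozygous and wild-type values overlapped, and all 4 homozygous values stood above them. The log2 fold change was 0.79 (SE 0.10, 95% interval 0.57 to 1.01, adjusted p = 0.0421, edgeR), a level 1.73 times the heterozygous one.

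The calls of Ccr2 and Lyve1 did not hold in many other fits. Both were lost without robust estimation, with the title letter as a covariate, with the replicate number as a block and with only the 7 homozygous and heterozygous libraries. Limma-voom called Lyve1 and not Ccr2. Lyve1 did not pass with any 1 of the 10 libraries left out (adjusted p from 0.0540 to 0.280, edgeR). Ccr2 passed without wild-type replicate 1 (adjusted p = 0.00827) and did not pass with any of the other 9 left out (adjusted p from 0.0736 to 0.290), while the log2 fold change of Ccr2 ran from -2.99 to -2.67. Mrc1 passed each time, and the log2 fold change of Mrc1 ran from -2.18 to -2.08. With only the libraries of title letter m, 2 per genotype, the values were -2.20 for Mrc1, -3.25 for Ccr2 and 0.69 for Lyve1, and none passed (adjusted p = 0.0622, 1 and 1, edgeR). That fit was chosen after the data had been seen. DESeq2, another count test, called 131 genes (0.934%) at the same threshold, 80 higher (0.57%) and 51 lower (0.364%), Mrc1, Ccr2 and Lyve1 among them. In what follows, passed and called refer to edgeR's test unless another is named.

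**Figure D1:**
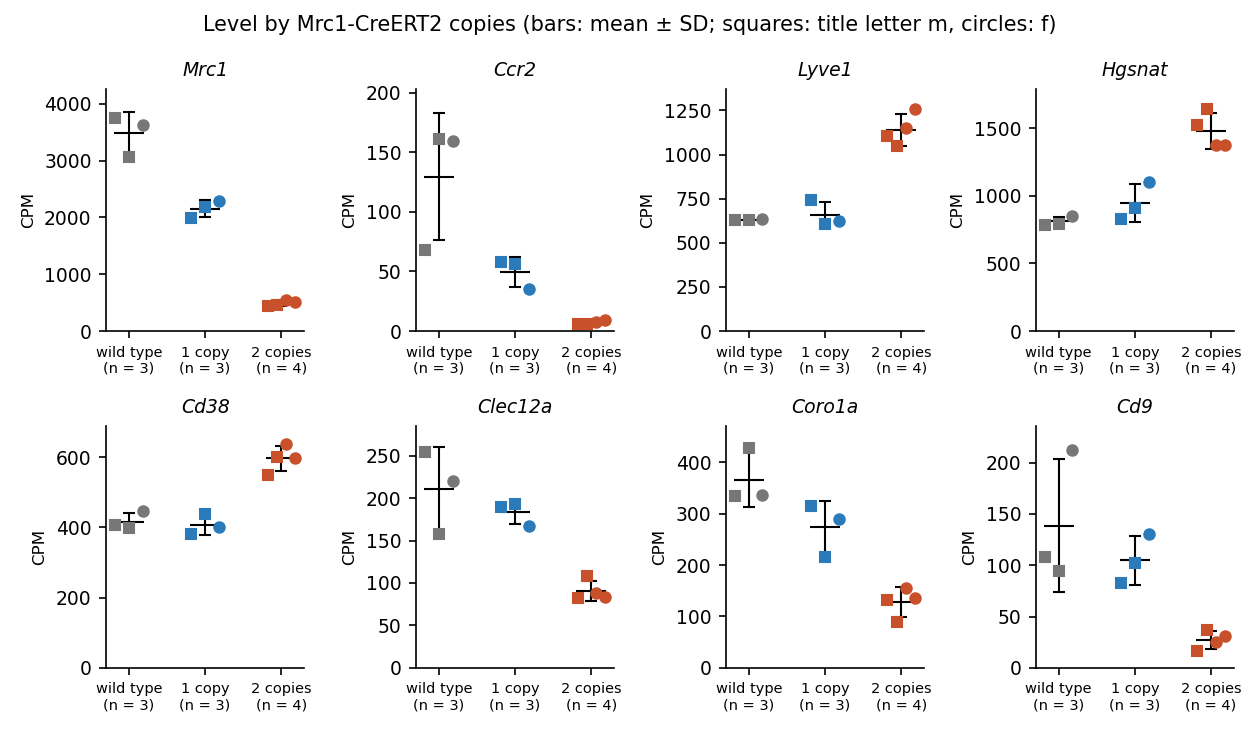
Level of 8 genes in each library, in CPM, by the number of Mrc1-CreERT2 copies. Points are single mice, with squares for title letter m and circles for f, and bars give the mean ± SD. Mrc1, Ccr2, Clec12a, Coro1a and Cd9 were lower and Lyve1, Hgsnat and Cd38 higher in every homozygous library than in any heterozygous one, and only Mrc1, Ccr2 and Lyve1 passed the test over all genes.

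Few genes of the macrophage transcriptome were separated from 0 by the second copy. The 3 called genes were 0.0214% of the 14023 tested, 0.00713% called higher and 0.0143% called lower. An unadjusted p under 0.05 was reached by 681 genes (4.86%), of which 372 were higher (2.65%) and 309 lower (2.2%). The libraries of both genotypes did not overlap for 1048 genes (7.47%), 526 genes that were higher (3.75%) and 522 that were lower (3.72%) in homozygous mice. The median log2 fold change over all tested genes was 0.01, and 49.1% were below 0. Between heterozygous and wild-type libraries edgeR called no gene, and 816 (5.82%) had an unadjusted p under 0.05.

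What these libraries could show depended on the level of a gene. Among the 1797 genes with a mean of at least 100 CPM log2 fold changes had a median SE of 0.18, and for 1653 of them (92.0%) the 95% interval lay within a 2-fold change in either direction. Among the 6336 genes between 10 and 100 CPM the median SE was 0.40, and 34.7% had such an interval. None of the 3831 genes from 1 to 10 CPM or of the 2059 genes under 1 CPM did. A gene count of 0 in at least 1 of the 7 libraries was found for 76.3% of the genes under 1 CPM, 48.7% of those from 1 to 10 CPM, 1.69% of those from 10 to 100 CPM and none above. The share of genes with an unadjusted p under 0.05 was 9.96% at 100 CPM and over, 102 of them higher and 77 lower, against 4.15% between 10 and 100 CPM.

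**Figure D2:**
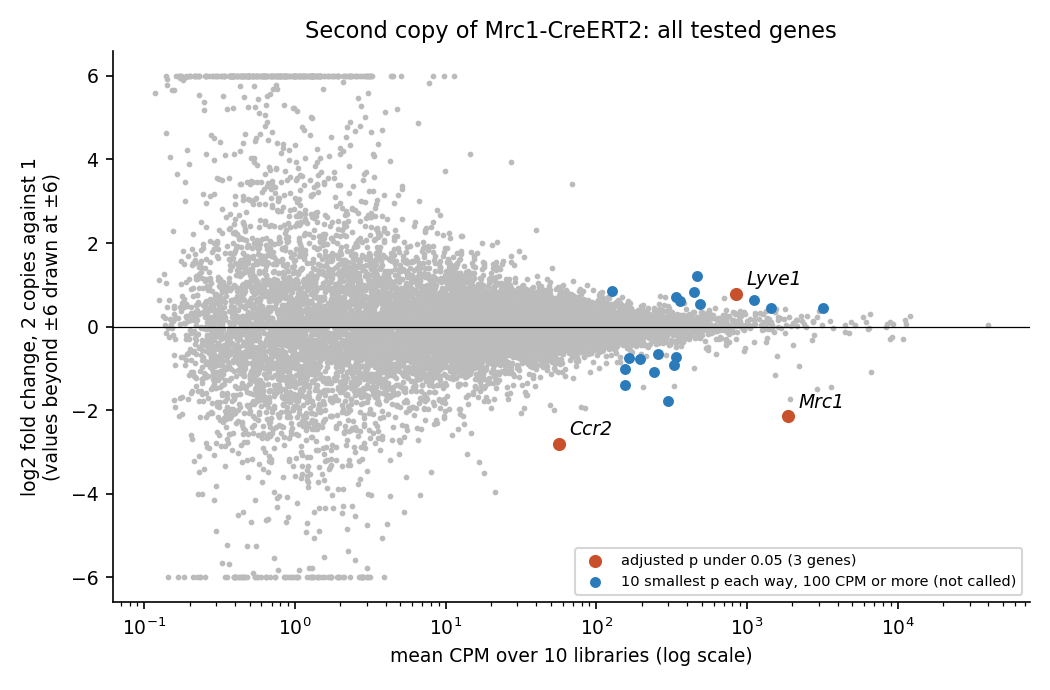
Log2 fold change of 2 copies against 1 for all 14023 tested genes, against their mean CPM over 10 libraries on a log scale. Red points are the 3 genes with an adjusted p under 0.05 and blue points the other genes of at least 100 CPM among the 10 with the smallest p in each direction. The scatter narrows with the level, and Mrc1 stands apart at the high end.

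Of the 10 abundant genes with the smallest p on the higher side, Lyve1 alone passed edgeR's test, and DESeq2 called all 10. Hgsnat, the lysosomal acetyltransferase that takes part in heparan sulfate breakdown, was at 1524, 1646, 1376 and 1375 CPM in homozygous and 828, 913 and 1106 CPM in heterozygous libraries. The groups did not overlap, and the log2 fold change was 0.64 (SE 0.11, adjusted p = 0.263, edgeR). Cd38, an ectoenzyme that consumes NAD, was at 548, 602, 637 and 597 CPM against 381.8, 438 and 400 CPM (0.55, SE 0.09, adjusted p = 0.263), again without overlap. Colec12, a scavenger receptor with a collagen-like stalk and a C-type lectin domain, was at 469, 439, 454 and 392 CPM against 225, 262 and 324 CPM (0.70, SE 0.14). Ednrb, the endothelin B receptor, was at 467, 564, 613 and 733 CPM against 381.3, 311 and 319 CPM (0.82, SE 0.16). Their log2 fold changes from no copy to 1 were 0.23 for Hgsnat, -0.03 for Cd38, 0.00 for Colec12 and -0.07 for Ednrb, with the heterozygous libraries shared by both steps.

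Fcgr2b, the inhibitory receptor for IgG, was at 1755, 1685, 1676 and 1716 CPM in homozygous and 1162, 1243 and 1391 CPM in heterozygous libraries, a log2 fold change of 0.43 (SE 0.09). Dab2, an endocytic adaptor, was at 3861, 4119, 3585 and 3701 CPM against 2857, 2478 and 3025 CPM (0.45, SE 0.10). Mmp9, a secreted gelatinase, varied more, at 752, 617, 1050 and 485 CPM against 390, 225 and 330 CPM (1.21, SE 0.29). None of the groups overlapped, and none of these genes passed (adjusted p of 0.590, 0.627 and 0.737, edgeR). Sema4a, a semaphorin that acts on lymphocytes (0.60, SE 0.14), and Ndst2, an enzyme that sulfates heparan chains (0.86, SE 0.20), completed the abundant genes with the smallest p on this side. Both differed from the others in the step from no copy to 1, which was -0.33 for Sema4a and -0.64 for Ndst2.

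On the lower side, none of the 9 abundant genes with the smallest p after Mrc1 passed edgeR's test, and DESeq2 called all 9. Clec12a, a myeloid lectin that carries an inhibitory signalling motif, was at 82.6, 108, 88.5 and 84.0 CPM in homozygous and 190, 193 and 168 CPM in heterozygous libraries. Its homozygous mean was 49.5% of the heterozygous mean, with no overlap (log2 fold change -1.02, SE 0.17, adjusted p = 0.263, edgeR). Coro1a, an actin-binding protein of leukocytes, was at 132, 88.6, 156 and 136 CPM against 315, 216 and 289 CPM (-1.09, SE 0.20, adjusted p = 0.305). Tgfbr1, the kinase subunit of the TGF-beta receptor, was at 229, 252, 223 and 237 CPM against 376, 359 and 431 CPM (-0.72, SE 0.13, adjusted p = 0.263). Neither gene overlapped between the groups.

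Pmepa1, a negative regulator of TGF-beta signalling whose transcription that pathway induces, had a log2 fold change of -0.74 (SE 0.17). Tmem119, a surface protein used as a marker of microglia, was at 86.2, 130, 127 and 100 CPM in homozygous and 294, 336 and 512 CPM in heterozygous libraries (-1.78, SE 0.36, adjusted p = 0.466). H2-DMa, which loads peptides onto MHC class II, was at 201, 232, 202 and 121 CPM against 414, 311 and 353 CPM (-0.93, SE 0.20, adjusted p = 0.537). All 3 were without overlap. Cd52, a small glycoprotein of leukocytes (-0.78, SE 0.17), Wfdc17, a secreted protein of activated macrophages (-0.66, SE 0.16), and F11r, a junctional adhesion molecule (-1.40, SE 0.37), made up the rest. Their steps from no copy to 1 were -0.61, -0.31 and -0.61.

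**Figure D3:**
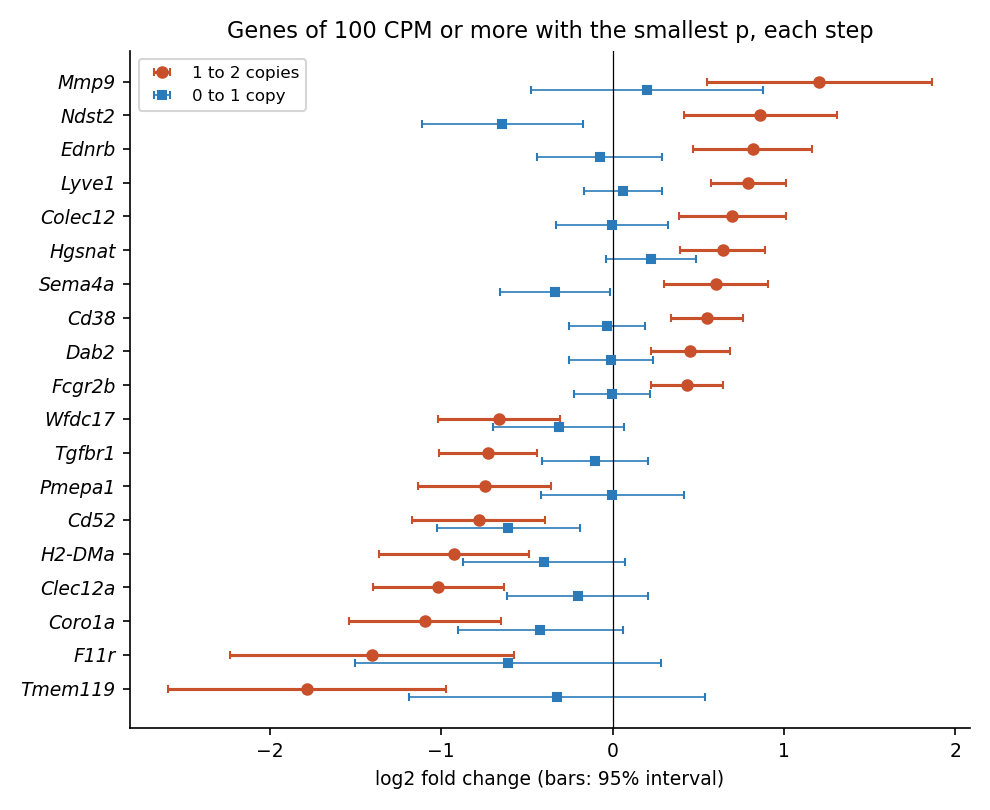
Log2 fold change with its 95% interval for the genes of at least 100 CPM with the smallest p in each direction, Mrc1 left out because of its scale. Red circles give the step from 1 to 2 copies, by which the genes were picked, and blue squares the step from no copy to 1. The intervals of the earlier step exclude 0 for Ndst2, Sema4a and Cd52 and include it for the other genes plotted.

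Less abundant genes with small p included several that were lowest in the heterozygous mice. Kptn, an actin-associated protein of a complex that restrains mTORC1, had 0 counts in all 3 heterozygous libraries, 14.4, 2.42, 19.3 and 12.2 CPM in the homozygous and 11.9, 13.4 and 23.5 CPM in the wild-type ones. Against 3 counts over the heterozygous group it was at least 344-fold higher in homozygous libraries, a bound that covers counting error only, and it did not pass (adjusted p = 0.103, edgeR). Without a count filter the log2 fold change of Kptn did pass (adjusted p = 0.0451), and over all alternatives its adjusted p ran from 1.70e-11 with DESeq2 to 1. Frmd6, a scaffold protein of the Hippo pathway, was at 32.1, 39.4, 32.3 and 26.7 CPM in homozygous, 10.6, 11.1 and 8.46 CPM in heterozygous and 47.2, 31.5 and 34.3 CPM in wild-type libraries. Homozygous and wild-type values overlapped and the heterozygous ones lay below both. The step from 1 to 2 copies was 1.70 (SE 0.28, adjusted p = 0.263) and that from no copy to 1 was -1.91 (SE 0.29).

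Paf1, a subunit of an elongation complex of RNA polymerase II (1.82, SE 0.32), Trap1, a mitochondrial chaperone (1.07, SE 0.21), and Aatf, a nuclear protein of ribosome assembly (1.20, SE 0.25), had steps of the opposite sign from no copy to 1, of -1.20, -0.91 and -1.40. Cenpn, a centromere protein, and Gm49463, a predicted gene, also had 0 counts in every heterozygous library and were at least 85.8-fold and 59.8-fold higher in homozygous ones against 3 counts over the group. Armc9, a protein of the ciliary base, had a single count among the heterozygous libraries. None of these 6 genes passed edgeR's test, and DESeq2 called all 6. These genes were picked by the step from 1 to 2 copies, and both steps share the heterozygous libraries, so a low heterozygous value favours steps of opposite sign. The wild-type values are therefore a description only. Over all tested genes, 240 had 0 counts in all 3 heterozygous libraries, 452 in all 3 wild-type libraries and 79 in all 4 homozygous libraries.

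Among the less abundant lower genes, Cd9, a tetraspanin, was at 16.1, 36.4, 24.8 and 31.2 CPM in homozygous and 82.7, 102 and 130 CPM in heterozygous libraries, a log2 fold change of -1.95 (SE 0.34, adjusted p = 0.263, edgeR). Il1b, the inflammatory cytokine interleukin 1 beta, was at 1.49, 1.09, 1.76 and 5.70 CPM against 29.7, 26.7 and 61.4 CPM (-3.97, SE 0.83, adjusted p = 0.509). Its wild-type libraries held 33.4, 46.0 and 4.58 CPM, so that one of them lay within the homozygous range. Myc, a transcription factor of growth, was at 30.2, 27.4, 19.9 and 16.3 CPM against 62.8, 56.9 and 46.1 CPM (-1.24, SE 0.27, adjusted p = 0.616). Cnn2, a calponin that binds actin (-0.97, SE 0.21), Rab39, a GTPase of phagosomes and autophagy (-1.34, SE 0.32), and Slamf9, a receptor of the SLAM family (-1.22, SE 0.29), were likewise without overlap and not called.

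Whether the step from 1 to 2 copies differed from the step from no copy to 1 was tested as a contrast in the same fit, and edgeR called no gene. At an unadjusted p under 0.05 there were 687 (4.9%), 324 higher (2.31%) and 363 lower (2.59%). On the same contrast limma-voom called none and DESeq2 called 181 (1.29%). Mrc1 had the contrast with the smallest p, with a step larger by -1.44 on the log2 scale (SE 0.18, adjusted p = 0.154, edgeR). It passed in the fit with the title letter as a covariate. Equal losses in CPM give a larger log2 step for the second copy, and Mrc1 lost 1328 CPM with the first copy and 1664 CPM with the second. The contrast of Mrc1 on the log2 scale therefore does not show that the copies acted differently. After Mrc1 came Kptn, Frmd6 and Gja1, each with an adjusted p of 0.164 (edgeR). Gja1, a gap junction protein, was without a count in the wild-type libraries. Its heterozygous values of 9.52, 13.5 and 8.89 CPM overlapped its homozygous values of 13.5, 12.6, 3.78 and 12.1 CPM. Top1, a topoisomerase, and Synj1, a phosphatase of endocytosis, had steps of -0.60 and -0.94 after steps of 0.60 and 1.24. For Lyve1 the contrast was 0.73 (SE 0.18) and for Ccr2 -1.42 (SE 0.58), and neither passed (adjusted p = 0.957).

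The genes on both sides of Mrc1 were examined because the allele carries its name. Of the 10 nearest tested genes in the RefSeq order on GRCm38.p6, St8sia6, Hacd1, Stamos, Stam and Tmem236 lie on one side and Slc39a12, Nsun6, Arl5b, Plxdc2 and A930004D18Rik on the other. Stam, an endosomal sorting adaptor, had a log2 fold change of 0.11 (95% interval -0.72 to 0.94), Nsun6, an RNA methyltransferase, of 0.02 (-1.25 to 1.28), and Arl5b, a GTPase of the Golgi, of 1.25 (-1.75 to 4.25). All 3 overlapped between the genotypes, and their intervals reach well beyond those of the abundant genes. Plxdc2, a transmembrane receptor, was at 22.5, 35.0, 26.4 and 23.9 CPM in homozygous and 125, 72.3 and 109 CPM in heterozygous libraries, with no overlap. Its log2 fold change was -1.92 (SE 0.47) and did not pass (adjusted p = 0.737, edgeR). Wild-type libraries held 48.0, 85.7 and 246 CPM of it. The other 6 neighbours had at most 4.62 CPM in any of the 7 libraries.

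Among genes tied to CreERT2 itself edgeR called none, and DESeq2 called Myc alone of the chaperone and oestrogen lists. Esr1, the oestrogen receptor whose ligand-binding part the fusion resembles, was at 40.8, 41.6, 41.0 and 53.4 CPM in homozygous and 23.8, 28.5 and 46.1 CPM in heterozygous libraries. The values overlapped, with a log2 fold change of 0.43 (95% interval -0.18 to 1.05), and the counting does not show whether any of these reads came from the fusion. Of 20 tested genes of the chaperone machinery that holds steroid receptors, none had an unadjusted p under 0.05 and none were without overlap. Their median was -0.11, 0.00 without heterozygous replicate 1, -0.07 without homozygous replicate 3 and -0.26 without heterozygous replicate 4. Hsp90ab1, the constitutive cytosolic HSP90, had -0.02 (95% interval -0.55 to 0.51), and Hspa8, its HSP70 partner, -0.26 (-1.18 to 0.66). Among 15 tested oestrogen receptor genes and targets only Myc had an unadjusted p under 0.05, and the list median lay between -0.08 and 0.11 as libraries were left out. Of 32 tested genes of the p53 and DNA damage response, 1 was higher and 3 were lower at that threshold (median -0.33, -0.21 without heterozygous replicate 1 and -0.08 without heterozygous replicate 2). These included Btg2, an antiproliferative target of p53, at -0.69 (SE 0.21), and Parp1, a sensor of DNA breaks, at -0.47 (SE 0.21). Of 24 genes of the unfolded protein response 1 was higher and none lower, with a median of 0.17 (0.10 without heterozygous replicate 4).

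Gene lists are described next by how many members had an unadjusted p under 0.05 and by how many had groups without overlap. Over all tested genes 2.65% were higher and 2.2% lower at that threshold, and 3.75% and 3.72% were without overlap. These shares were larger among abundant genes. Of the 1797 genes of at least 100 CPM, 102 were higher and 77 lower at an unadjusted p under 0.05. Of the same 1797 genes, 129 on the higher and 83 on the lower side were without overlap. The all-gene shares are therefore a low yardstick for lists of abundant genes, and lists were not compared with genes of like level. Members named beyond the rule for named genes were picked after their values were seen.

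Border macrophage markers were mostly above 0, by small amounts. Of 33 members 28 were above 0, 10 were higher and 1 was lower at that threshold, 10 higher and 1 lower were without overlap, and Lyve1 alone passed edgeR's test. DESeq2 called Lyve1, Cd38, Colec12 and Dab2 higher and none lower. The median was 0.23, against 0.01 over all genes, and log2 fold changes on the list ran from -0.84 to 0.79. Earlier results of these data had already shown the list and its members Lyve1 and Cd38 to be higher. Besides Lyve1, Colec12, Cd38 and Dab2, the higher members included Cp, the ferroxidase ceruloplasmin (0.49, SE 0.17), F13a1, a transglutaminase (0.36, SE 0.16), Pf4, a platelet-type chemokine (0.26, SE 0.08), Stab1, a scavenger receptor (0.24, SE 0.08), and Gas6, a bridging ligand for dying cells (0.23, SE 0.10). Apoe, the apolipoprotein and the most abundant member, had 0.03 (95% interval -0.26 to 0.32). The step from no copy to 1 had a median of 0.04 for this list.

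Genes of uptake and degradation also lay mostly above 0, with few large values. Of 17 tested genes on the scavenger receptor list 3 were higher and 1 was lower at an unadjusted p under 0.05, with a median of 0.21. Their summed level was 12982 to 13540 CPM in homozygous and 11160 to 11720 CPM in heterozygous libraries, with no overlap. The higher members were Colec12, Dab2 and Stab1, all on the border macrophage list above as well, so the lists are not separate evidence. Much of the difference in that sum came from Dab2, which is an endocytic adaptor and not a receptor, and from Stab1. Their homozygous means were 3817 and 3407 CPM and their heterozygous means 2787 and 2888 CPM. The lower member was Axl, a receptor tyrosine kinase for dying cells, at -0.65 (SE 0.29). Of 39 tested lysosomal hydrolase genes 32 were above 0, 7 were higher and 1 was lower, with a median of 0.17. Ctsb, cathepsin B, was at 13012, 13023, 13892 and 14358 CPM against 12205, 11367 and 10543 CPM (0.26, SE 0.08). Asah1, acid ceramidase (0.24, SE 0.06), and Lgmn, legumain (0.26, SE 0.10), were similar.

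Of 18 tested complement genes 4 were higher and none lower at that threshold, with a median of 0.11. Among the higher ones, C4b and C2, of the classical pathway, had 0.42 and 0.55 and properdin (Cfp) 0.56, and the abundant C1qa, C1qb and C1qc lay between 0.06 and 0.11. In the iron and haem list 2 of 21 tested genes were higher and none lower, with a median of 0.16 (0.10 without homozygous replicate 2). One was Slc40a1, the iron exporter ferroportin, at 787, 1051, 846 and 722 CPM against 581, 538 and 479 CPM (0.68, SE 0.20), and the other was Cp. Fth1 and Ftl1, the ferritin chains, had -0.06 and 0.04. Of 19 tested genes of collagen and matrix turnover 3 were higher (Ctsb, Mmp9 and Tgfbi, a secreted matrix protein) and Sparc, a matrix glycoprotein also used as a marker of microglia, was lower, with a median of 0.17 (0.10 without homozygous replicate 2, 0.27 without heterozygous replicate 4). The summed level of that list was 19106 to 20174 CPM in homozygous and 15996 to 17202 CPM in heterozygous libraries. Ctsb, also counted among the lysosomal genes, made up most of that sum, with means of 13571 CPM in homozygous and 11372 CPM in heterozygous libraries. DESeq2 called Mmp9 and Mrc2 of this list higher and none lower.

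Lectins related to Mrc1 lay on both sides of 0. Of the 25 tested genes of the mannose receptor and lectin list, Mrc1 included, 1 was higher and 2 were lower, 12 were above 0 and 13 below, and the median lay between -0.07 and 0.06 as libraries were left out. Mrc1 and Clec12a were the lower members and Colec12 the higher one. DESeq2 called Mrc1 and Clec12a lower and Colec12 and Mrc2 higher. Mrc2 did not reach an unadjusted p under 0.05 in edgeR's test. Mgl2 and Clec10a, macrophage lectins for galactose, had 0.72 (95% interval -0.05 to 1.497) and 0.21 (-0.06 to 0.49). For Mgl2 the replicates differed among themselves, at 817, 553, 1429 and 1782 CPM in homozygous and 616, 584 and 884 CPM in heterozygous libraries.

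Genes of monocytes and of cells recently derived from them lay mostly below 0. The list holds 4 genes, Clec12a, Coro1a, Cd52 and Slamf9, that were put on it because earlier results of these data showed them lower, so its values with them are no independent evidence of direction. Without these 4, of 12 tested members 1 was higher and 4 were lower at an unadjusted p under 0.05, 4 were without overlap on the lower side and none on the higher side, and the median was -1.81. With them, of 16 tested members 1 was higher and 8 were lower, and the median was -1.32. The 12 members still include Ccr2, the gene already called above, and the whole list was chosen with earlier results known. Neither version is therefore independent evidence of direction. Ccr2 alone passed edgeR's test, and DESeq2 called it and the 4 added genes lower and 1 member higher. The other lower members were Lsp1, an actin-binding protein of leukocytes (-1.42, SE 0.41), and the calcium-binding proteins S100a6 (-1.93, SE 0.77) and S100a4 (-3.31, SE 1.40). The summed level without the 4 added genes was 45.9 to 83.7 CPM in homozygous, 125 to 194 CPM in heterozygous and 198 to 299 CPM in wild-type libraries. With them it was 359 to 512 CPM, 755 to 969 CPM and 1230 to 1293 CPM, most of it from those 4 genes. In the sum without them, Ccr2 had a mean of 7.12 CPM in homozygous and 49.7 CPM in heterozygous libraries. Defining monocyte genes were scarce in all groups. Ly6c2 had a mean of 1.04 CPM in homozygous and 6.603 CPM in heterozygous libraries, Plac8 of 0.617 and 1.99 CPM, and Chil3 and S100a8 had 0 counts in all libraries.

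MHC class II genes summed to 7979 to 14730 CPM in homozygous and 15552 to 27946 CPM in heterozygous libraries, without overlap and with wide scatter. Of 15 tested members none were higher and 6 were lower at an unadjusted p under 0.05, 5 were without overlap on the lower side, none passed, and the median was -0.69. It was -0.21 without heterozygous replicate 4. H2-Aa, a class II alpha chain, was at 1483, 1656, 1164 and 382.5 CPM in homozygous and 3997, 2055 and 3833 CPM in heterozygous libraries (-1.49, SE 0.44). The groups did not overlap, homozygous replicate 4 was the lowest and heterozygous replicate 2 came nearest to the homozygous values. H2-Eb1, the partner chain of the other isotype, was at 872, 1040, 653 and 163 CPM against 2811, 1277 and 2692 CPM (-1.73, SE 0.53). Cd74, the invariant chain, was at 4690, 4458, 3385 and 1296 CPM against 9445, 3864 and 8634 CPM and did overlap (-1.08, SE 0.42). Cd86, a costimulatory ligand, had 0.06 (95% interval -0.31 to 0.42). The 19 tested MHC class I genes had a median between -0.01 and 0.06 as libraries were left out, with none under that threshold in either direction.

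B cells, which also carry MHC class II, were followed by their own markers. Of 10 tested B cell genes 2 were higher and none lower at an unadjusted p under 0.05 (Ms4a1 and Cd79a, both with 0 counts in all heterozygous libraries), the median changed sign as single libraries were left out, from -0.36 without homozygous replicate 3 to 0.15 without homozygous replicate 1, and the summed level was 272 to 444 CPM in homozygous and 370 to 492 CPM in heterozygous libraries. Ighm, the heavy chain of IgM and the most abundant, had -0.35 (95% interval -0.80 to 0.11). Of 11 tested dendritic cell genes 1 was higher and 1 lower, and Itgax had 0 counts in all libraries. Among 14 T and NK cell genes none were higher and 1 was lower, with a median of -1.10 and a summed level of 165 to 252 CPM in homozygous and 150 to 197 CPM in heterozygous libraries. The lower member was Il7r, the interleukin 7 receptor, at 0, 0, 0.205 and 1.60 CPM against 10.1, 1.82 and 10.4 CPM. Cd4, which macrophages also express, made up most of that sum. The part of these cells in the MHC class II values was not tested.

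Of 25 tested inflammatory cytokine genes 20 were below 0 and 5 above, with none higher and Il1b alone lower at an unadjusted p under 0.05. The median was -0.57, and -0.14 without heterozygous replicate 2. The abundant chemokines Ccl12 (-0.57, 95% interval -1.57 to 0.44), Ccl7 (-0.41, -1.62 to 0.80) and Ccl8 (0.16, -0.49 to 0.81) overlapped between the genotypes. Over 32 tested interferon response genes the median was -0.11. None were higher and Usp18, a regulator of interferon signalling, lower (-0.69, SE 0.30). Without heterozygous replicate 4 that median was 0.24, and with 1 of the other libraries left out it reached -0.27.

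**Figure D4:**
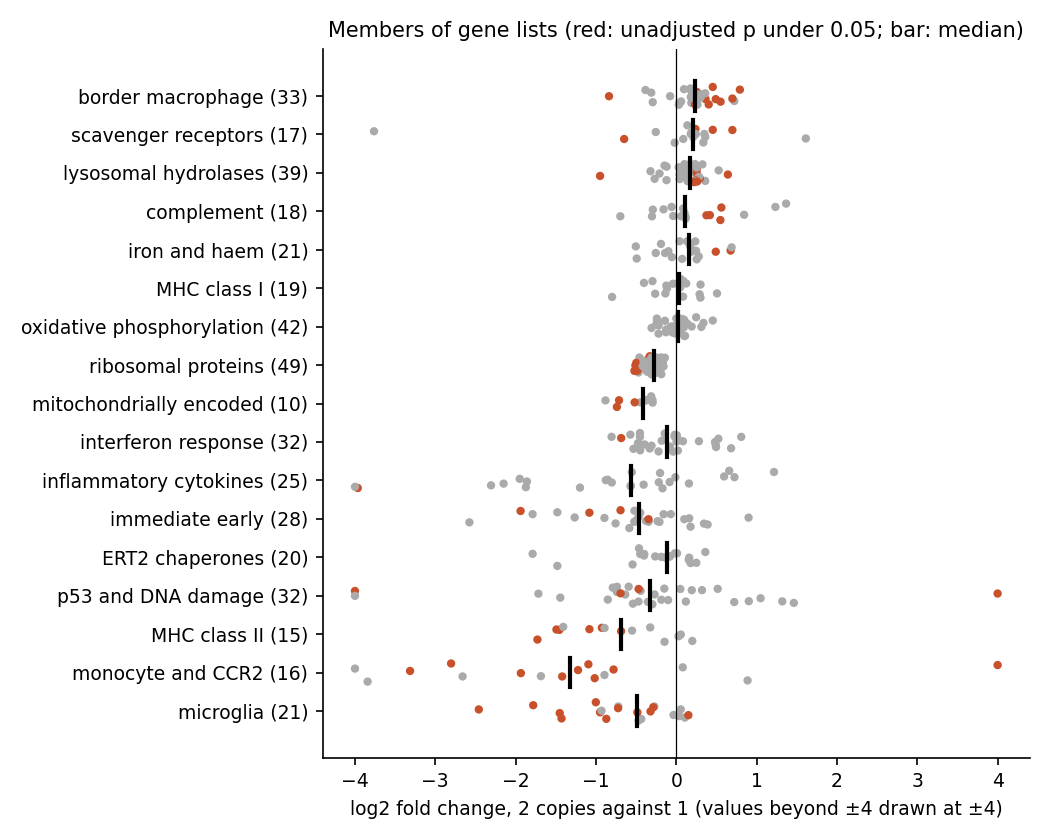
Log2 fold change of 2 copies against 1 for each tested member of 17 gene lists, with the number of tested genes in brackets. Red points are members with an unadjusted p under 0.05, and the bar is the list median. Scavenger receptor, lysosomal and border macrophage genes lie mostly to the right of 0, and monocyte, MHC class II, microglia, ribosomal protein and mitochondrially encoded genes mostly to the left.

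Transcription factors of macrophages were divided. Of 28 tested, 2 were higher and 6 lower at an unadjusted p under 0.05, with a median of -0.09 (-0.19 without heterozygous replicate 1, 0.00 without heterozygous replicate 2). Klf2, a zinc finger factor that restrains inflammatory activation, was at 45.3, 47.8, 58.8 and 45.1 CPM in homozygous and 101, 88.8 and 123 CPM in heterozygous libraries (-1.08, SE 0.31), with no overlap. Cebpb, a factor needed by Ly6C-low monocytes and many macrophages, was at 147, 102, 84.2 and 102 CPM against 174, 159 and 174 CPM (-0.64, SE 0.18). Egr1, an immediate early factor (-1.94), Id2, an inhibitor of helix-loop-helix factors (-1.57), and Sall1, a factor that defines microglia (-2.46), were also among the lower members. Mef2c (0.20) and Tcf4 (0.32) were the higher ones. Maf and Spi1, factors of the macrophage lineage, were not among them. Maf had 0.04 (95% interval -0.33 to 0.41). In the list of growth factor receptors 1 of 21 was higher and 2 were lower. The higher one was Csf1r, the receptor on which these macrophages depend (0.15, SE 0.07), and the lower ones were Tgfbr1 and Il10ra, the interleukin 10 receptor (-0.42, SE 0.14).

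Lists that can follow the state of the cells at sorting or the RNA itself were also examined. Of 28 tested immediate early genes, which cell isolation can induce, none were higher and 5 were lower at an unadjusted p under 0.05, and the median was -0.46. Their summed level was 1796 to 2467 CPM in homozygous and 2458 to 2714 CPM in heterozygous libraries. All 49 ribosomal protein genes were below 0, 7 of them lower at that threshold, with a median of -0.28 (-0.17 without heterozygous replicate 2, -0.50 with title letter m only) and summed levels of 7544 to 11224 CPM against 10152 to 13331 CPM. All 10 mitochondrially encoded genes were below 0 and 3 were lower, with a median of -0.41. The medians of both lists had the opposite sign in the step from no copy to 1, at 0.19 and 0.21. Nuclear genes of oxidative phosphorylation had a median of 0.02 over 42 genes, and the 95% intervals of all 42 lay within a 2-fold change. Of 31 cell cycle genes none were higher and 3 were lower, with a median of -0.52. It was -0.22 without homozygous replicate 2 or 4, -0.17 without heterozygous replicate 4 and -0.10 with the title letter as a covariate. Rrm1, a subunit of ribonucleotide reductase (-1.13, SE 0.28), and Mcm3, of the replicative helicase (-0.90, SE 0.25), were among the 3.

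Microglia, the macrophages of the brain tissue itself, could enter such a sort. Of 21 tested microglia markers 1 was higher and 11 were lower at an unadjusted p under 0.05, 1 higher and 9 lower were without overlap, and the median was -0.48, or -0.30 without heterozygous replicate 4. Their summed level was 30630 to 34147 CPM in homozygous, 34966 to 38681 CPM in heterozygous and 30715 to 44921 CPM in wild-type libraries. Most of that sum came from Csf1r, Cst3, Fcrls and Cx3cr1, which border macrophages also express. DESeq2 called 4 of the 21 markers lower, Tmem119, Sall1, Trem2 and Tgfbr1, and none higher, beside 0.364% called lower over all tested genes. The members that separate microglia best were unequal. Tmem119 and Sall1 had -1.78 and -2.46, while P2ry12, a purinergic receptor, had -0.44 (95% interval -1.08 to 0.21) and P2ry13, its relative, 0.04 (-0.39 to 0.46). Sall1 was at 2.29, 3.00, 4.30 and 2.202 CPM in homozygous and 2.67, 26.0 and 20.0 CPM in heterozygous libraries, so heterozygous replicate 1 lay within the homozygous range. These values stand beside the fall of Mrc1, the rise of Lyve1 and the border macrophage median of 0.23. The part of microglia in those results was not tested.

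Markers of other cells of the brain were low. The 12 tested astrocyte, 7 oligodendrocyte, 10 neuron and 9 fibroblast genes had medians whose sign changed as single libraries were left out, from -0.60 to 0.28, -0.31 to 0.30, -0.67 to 0.72 and -0.19 to 1.83. There was 1 astrocyte and 1 fibroblast gene higher and none lower at an unadjusted p under 0.05. Summed levels in homozygous and heterozygous libraries were 48.6 to 92.8 and 37.3 to 77.8 CPM for astrocytes, and 140 to 282 and 193 to 254 CPM for oligodendrocytes. Of 14 endothelial genes only 4 were tested, and Cldn5, Tek, Ly6c1, Esam and Emcn had 0 counts in all libraries. Of 14 neutrophil genes 2 were tested, Mmp9 and Csf3r, and 8 had 0 counts, Ly6g and S100a8 among them, beside the Mmp9 values given above. None of the 9 mast cell and basophil genes was tested. Of 11 choroid plexus and ependymal genes 3 were tested. Their summed level was 3.95 to 168 CPM in homozygous and 2.43 to 191 CPM in heterozygous libraries. It was highest in homozygous replicate 3 and heterozygous replicate 4. Haemoglobin genes of red cells were high in homozygous replicates 2 and 3, where Hbb-bs was at 177 and 385.3 CPM, against 0.617 and 1.75 CPM in replicates 1 and 4 and 0 to 37.7 CPM in heterozygous libraries.

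**Figure D5:**
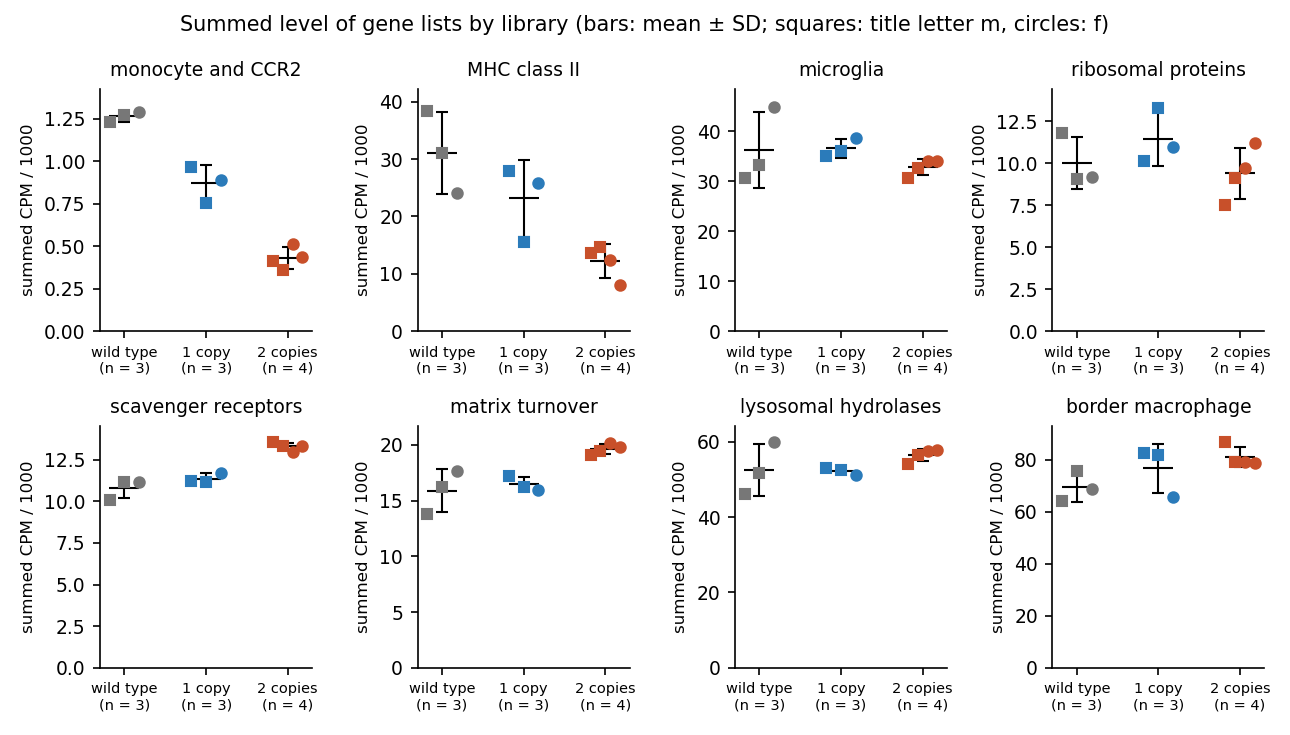
Summed level of 8 gene lists in each library, in units of 1000 CPM, by the number of Mrc1-CreERT2 copies. Points are single mice, with squares for title letter m and circles for f, and bars give the mean ± SD. The monocyte sum comes mostly from 4 genes added because earlier results showed them lower. Homozygous and heterozygous libraries do not overlap for the monocyte, MHC class II, microglia, scavenger receptor, matrix turnover and lysosomal lists, and overlap for the ribosomal protein and border macrophage lists.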

How the data were processed

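Read counts of each gene symbol, as whole numbers, were deposited by the authors as a table of 10 libraries. The labels' protocols name SMARTer amplification of 500 pg of RNA, which does not mark the strand, and Nextera XT. The submitters' processing notes name bcl2fastq 2.20, STAR 2.7.8a and featureCounts 2.0.2. Build, annotation and strand setting were not given in the sources used. Coordinates are therefore left out, and overlapping, antisense or near-identical genes (haemoglobins, MHC class II) cannot be told apart.

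Of 53546 genes, filterByExpr (minimum count 10, total 15) left 14023 with 99.9% of counts. Libraries totalled 22986972 to 36575446 counts, and CPM were scaled by trimmed means of M values. The model was fitted to all 10 libraries by genotype alone with edgeR 4.0.16 (R 4.3.3, robust quasi-likelihood), and genes with a Benjamini-Hochberg adjusted p under 0.05 were called. SE was taken from the log2 fold change and F. Bounds cover counting error only, since PCR reads are not counted as molecules. Libraries of a genotype differed beyond counting noise (chi-square per gene 87.1 to 137 in homozygous and heterozygous pairs).

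Alternatives were DESeq2's size factors, no filter, at least 1 CPM in 3 libraries, DESeq2 1.42.0, limma-voom (limma 3.58.1), no robust estimation, title letter or replicate number as a term, only the 7 libraries, and each library left out. Title letter m alone was an alternative chosen after seeing the data. The fits were tested on simulated data. Named genes were Mrc1, Esr1, the 15 of smallest p in each direction (10 among those of at least 100 CPM, 5 for the contrast of steps), the 4 most abundant of each list, and the 5 tested neighbours of Mrc1 on each side (RefSeq order, GRCm38.p6). Comparison, lists and this rule were chosen with earlier results of these data known. No list was tested as a set. Some members of the lists are not reported here by name.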

Additional observations from a re-analysis of the deposited data

Results flagged for a closer look

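Among the 179 named genes, Xist, Ddx3y, Eif2s3y and Uty were not examined. Of the others, 15 had 1 homozygous library that stood apart from the other 3 by more than Dixon's 95% critical value. Chance gives that in about 1 of 20 groups of normally distributed values. A gene with counts in only 1 homozygous library exceeds it whatever the count, as Slc39a12, Vwf, St8sia6 and Tmem236 did. Homozygous replicate 4 was high for Il1b at 5.70 CPM, against 1.09 to 1.76 CPM in the others. It was also high for Btg2, an antiproliferative gene, at 228 CPM (others 135 to 148), for Il7r at 1.60 CPM (0 to 0.205) and for Esr1 at 53.4 CPM (40.8 to 41.6). Slc39a12, a zinc transporter, was at 0.151 CPM there and at 0 in the others.

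Homozygous replicate 1 was high for the chemokine Ccl12 at 730 CPM (others 321 to 389) and for Wfdc17 at 214 CPM (160 to 167), and low for the tetraspanin Cd53 at 1235 CPM (1436 to 1458). Folr1, a choroid plexus gene, was at 0.436 CPM there and at most at 0.0293 CPM in the others.

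Homozygous replicate 2 held 1.74 CPM of St8sia6 and 3.35 CPM of Tmem236, both neighbours of Mrc1 that had 0 counts in the other homozygous libraries. Homozygous replicate 3 held 102 CPM of Enpp2, a choroid plexus gene (others 0.436 to 12.997), 5.68 CPM of Slc6a13, a fibroblast gene (0 to 0.954), and 0.322 CPM of Vwf, an endothelial gene at 0 in the others. Enpp2 had 3469 counts in that library, and 1922 counts in heterozygous replicate 4. Gja1 was low in homozygous replicate 3 at 3.78 CPM, against 12.1 to 13.5 CPM.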

How the results depend on the processing

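Between homozygous and heterozygous libraries, edgeR called 3 genes, also with DESeq2's size factors and with the stricter filter. Without a filter it called 4, adding Kptn, and limma-voom called 2, Mrc1 and Lyve1. The count was 1, Mrc1, without robust estimation, with the title letter as a covariate and with only the 7 libraries, and 0 with only the libraries of title letter m, where 506 genes had an unadjusted p under 0.05. DESeq2 called 131 genes, 80 higher and 51 lower. With 1 library left out the count ran from 1 to 2. For the contrast of steps the count was 0, 181 with DESeq2 (101 higher and 80 lower) and 1, Mrc1, with the title letter, and stayed at 0 as libraries were left out.

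The replicate numbers shared by the genotypes did not pair the libraries (correlations of deviations of 0.029, 0.015 and -0.0024 for numbers 1, 2 and 4 over 11964 genes). With the replicate number as a block the count was 1, Mrc1, for the comparison and 0 for the contrast of steps. The number of genes whose 95% interval lies within 2-fold was 3851, and 2271 with only title letter m. The number of genes whose homozygous and heterozygous libraries do not overlap in CPM was 1048, 1568 to 2338 without 1 homozygous or heterozygous library, fewer libraries overlapping less by construction, and 4926 with only title letter m. No scaling moved the median of all genes by 0.1. Genes under 10 CPM were too imprecise to exclude a 2-fold change.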
